A study of Homo sapiens with 6 samples.

Results

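The olfactory receptor genes of human chromosome 11 were examined for binding of the AP-1 subunits FOSL2 and JUNB in HaCaT cells, an immortal human keratinocyte line that arose from adult skin. The members were the protein-coding genes of chromosome 11 in RefSeq (GRCh38.p14) whose symbol is OR followed by digits, letters and digits, such as OR5A1. The rule gave 171 of the 1301 protein-coding genes listed for the chromosome, and 168 of them had a position on it. OR8U8, OR8U9 and OR9G9 did not and were left out of all counts. Binding was measured by ChIP-seq on untreated cells, with libraries made by ChIPmentation, for FOSL2 (3 libraries) and JUNB (3 libraries), each with its own antibody. Each factor was represented by 1 deposited list of regions for its 3 libraries together, so values come without an error between replicates, and library depth is unknown. The lists held 75703 FOSL2 and 40061 JUNB regions on the autosomes and X, of which 3973 and 2240 lay on chromosome 11.

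Olfactory receptors are G protein-coupled receptors that bind odorants on the cilia of sensory neurons in the nose. Each neuron expresses a single receptor gene from a single allele, and in most other cells the receptor genes are silent. The coding sequence of a receptor lies in 1 exon, and the genes stand side by side in large clusters. AP-1 is a dimer of a FOS-family and a JUN-family protein that binds short palindromic sites, mostly in enhancers of active chromatin, and in keratinocytes it regulates proliferation, stress and differentiation genes. Expression was not measured here, so whether a receptor gene was silent in these HaCaT cells was not tested.

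Few olfactory receptor genes had an AP-1 region nearby. A gene was counted as bound when any base of a region lay within 10 kb of the gene, from its annotated start to its end. FOSL2 met this for 36 of the 168 receptor genes (21.4%, 95% Wilson interval 15.9 to 28.2), against 924 of the 1129 other protein-coding genes of the chromosome (81.8%, 79.5 to 84.0) and 77.2% of all protein-coding genes of the autosomes and X. JUNB met it for 16 receptor genes (9.52%, 5.95 to 14.9), against 789 other genes of the chromosome (69.9%, 67.1 to 72.5) and 64.3% of all protein-coding genes. Regions of both factors lay near 15 receptor genes (8.93%, 5.49 to 14.2), against 731 other genes (64.7%, 61.9 to 67.5) and 60.3% of all genes. Of the receptor genes, 21 had FOSL2 only, 1 had JUNB only and 131 had neither. The intervals of receptor genes and other genes did not overlap for either factor. They cover counting error in these lists only, and no test was made, because neighbouring genes share regions and are not independent.

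Receptor genes are short, with a median annotated length of 1103 bp (912 to 165335), against 18221 bp for the other genes, and a longer gene has a wider window. Among genes no longer than 2 kb, FOSL2 lay near 11 of 92 receptor genes (12.0%, 6.81 to 20.2) and near 39 of 68 other genes (57.4%, 45.5 to 68.4). For JUNB the counts were 4 of 92 receptor genes (4.35%, 1.70 to 10.7) and 34 of 68 other genes (50%, 38.4 to 61.6). Per length of window the contrast had the same direction. The merged windows of the receptor genes covered 3.46 Mb and held 38 FOSL2 regions (10.97 per Mb) and 14 JUNB regions (4.04 per Mb), against 35.5 and 21.4 per Mb in the 73.0 Mb of windows of the other genes. Near-identical receptor copies can keep reads from being placed uniquely, and the part of this in the result was not tested.

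Other gene families that form clusters on chromosome 11, each taken as a whole, had higher shares for both factors than the receptor genes, with wide intervals. MS4A genes, which encode tetraspan membrane proteins such as the B-cell antigen CD20, had a FOSL2 region in 8 of 16 cases (50%, 28.0 to 72.0) and a JUNB region in 3 (18.8%, 6.59 to 43.0). TRIM genes are a family of ubiquitin ligases of which several lie within the receptor gene clusters. They had FOSL2 in 9 of 20 cases (45.0%, 25.8 to 65.8) and JUNB in 7 (35%, 18.1 to 56.7). The family was split: TRIM5, TRIM6, TRIM29, TRIM34, TRIM44 and TRIM66 had both factors. TRIM22, TRIM49 and TRIM68 had FOSL2 only and TRIM3 had JUNB only. TRIM21, TRIM48, TRIM49B, TRIM49C, TRIM51, TRIM51G, TRIM64, TRIM64B, TRIM64C and TRIM77 had neither. Hair keratin-associated KRTAP5 genes, as short as the receptor genes with a median of 1156 bp, had FOSL2 in 7 of 11 cases (63.6%, 35.4 to 84.8) and JUNB in 6 (54.5%, 28.0 to 78.7). All 8 MRGPR genes, a family with receptors of itch-sensing neurons and mast cells, and all 10 matrix metalloproteinase genes had a FOSL2 region, and 5 and 8 of them a JUNB region. The interval of the receptor genes overlapped those of the MS4A and TRIM genes for FOSL2 and that of the MS4A genes for JUNB. Some regions counted on both sides. Of the regions of the metalloproteinase gene MMP26, 5 of 6 for FOSL2 and the 1 for JUNB also lay near receptor genes. So did the FOSL2 region of TRIM68.

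**Figure D1:**
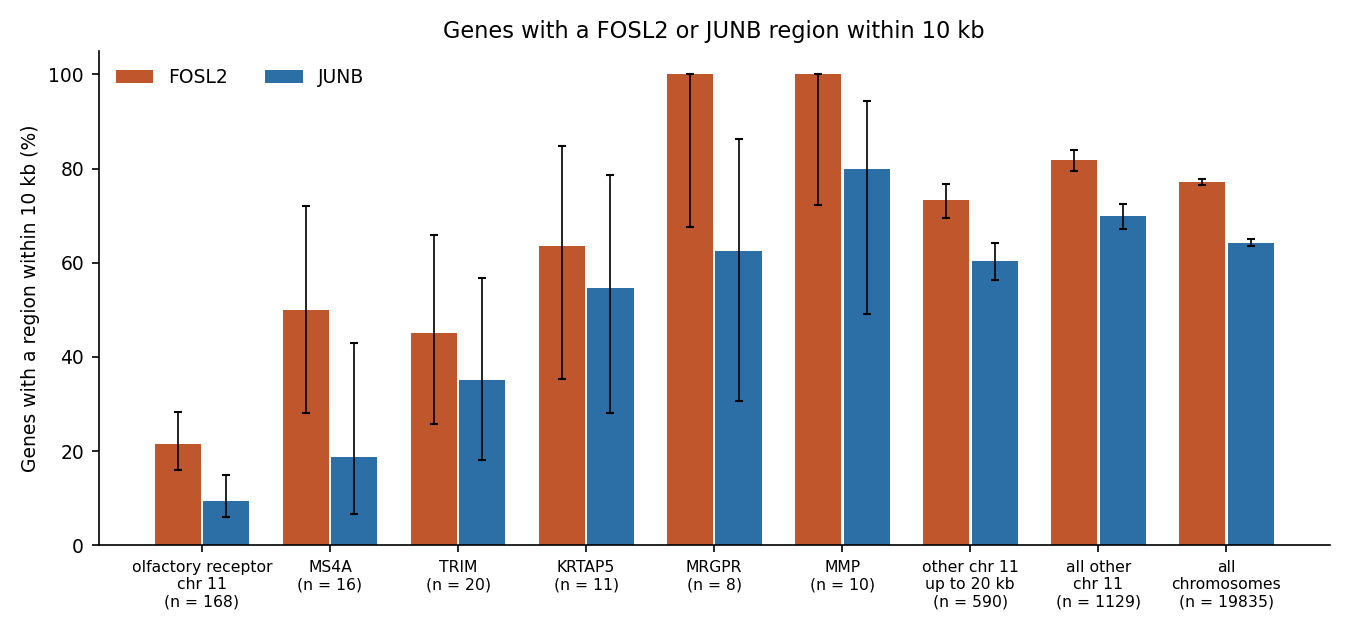
Share of genes with a FOSL2 (orange) or JUNB (blue) region within 10 kb, in percent, for the olfactory receptor genes of chromosome 11, 5 other families of the chromosome, other genes up to 20 kb long, all other genes of the chromosome and all protein-coding genes of the autosomes and X. Bars start at 0 and lines are 95% Wilson intervals; the receptor genes have the lowest bars, 21.4% for FOSL2 and 9.52% for JUNB.

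Regions were rare on the receptor genes themselves, and the share of receptor genes with a region stayed below that of the other genes at each distance up to 100 kb. These shares are cumulative and can only grow with the distance allowed. A FOSL2 region touched 11 receptor genes (6.55%) and a JUNB region touched 3 (1.79%), against 60.4% and 52.1% of the other genes. Among other genes up to 20 kb long the touched shares were 39.8% (FOSL2) and 34.6% (JUNB). These genes were still longer than receptor genes, with a median of 7808 bp, and the part of length in this contrast was not tested. Within 50 kb, FOSL2 lay near 57.7% of receptor genes and 96.5% of the others, and JUNB near 35.1% and 91.5%. Within 100 kb the shares were 74.4% and 98.5% for FOSL2 and 58.3% and 96.8% for JUNB. The median distance of a receptor gene to the nearest region was 40.8 kb for FOSL2 and 75.2 kb for JUNB, and the most distant gene was 1051 kb and 2020 kb away. At the 10 kb limit, OR10A5 and OR5M1 were just inside for FOSL2 (9.30 and 9.58 kb) and OR51A7 and OR10G9 just outside (11.2 and 11.8 kb). For JUNB, OR51T1 and OR5M1 were just inside (8.89 and 9.49 kb) and OR2AG2 and OR51A7 just outside (10.0 and 11.2 kb).

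**Figure D2:**
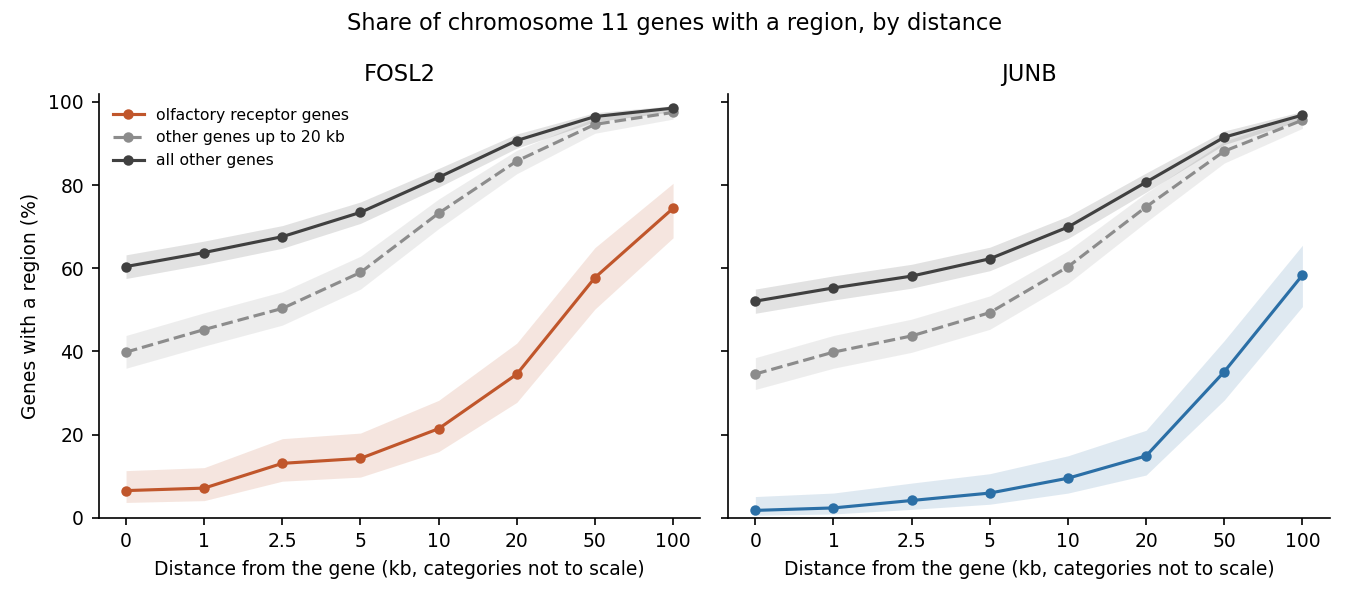
Share of chromosome 11 genes with a FOSL2 (left) or JUNB (right) region, in percent, against the distance allowed from the gene in kb (categories, not to scale). Coloured lines are olfactory receptor genes, dashed grey lines other genes up to 20 kb long and dark lines all other genes, with 95% Wilson bands; at 0 kb, where the region touches the gene, the receptor genes are at 6.55% and 1.79%.

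For the 38 FOSL2 and 14 JUNB regions that did lie near receptor genes, the intervals of median fold enrichment and width overlapped those of regions near other genes. Fold enrichment, the authors' ratio of signal over background for each region, had a median of 4.56 (exact 95% interval of the median 4.07 to 5.73) over the 38 FOSL2 regions near receptor genes. It was 5.41 (5.26 to 5.55) over 2581 regions near other genes of the chromosome and 5.49 (5.27 to 5.70) over 1354 regions farther than 10 kb from every protein-coding gene. The 14 JUNB regions had a median of 4.78 (3.64 to 7.48), against 4.48 (4.37 to 4.62) over 1557 regions near other genes and 4.71 (4.50 to 4.95) far from genes. All of these intervals overlapped those of the receptor genes, which are wide at this number of regions. No test of a difference in fold enrichment was made. Median widths were 612 bp (444 to 764) near receptor genes and 671 bp (651 to 690) near other genes for FOSL2, and 534.5 bp (232 to 764) and 580 bp (563 to 598) for JUNB. The median −log10 q was 14.5 near receptor genes and 28.4 near other genes for FOSL2, and 12.6 and 15.2 for JUNB. It was thus lower near receptor genes for both factors, but no interval was computed for it.

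A region counted as shared if it overlapped a region of the other factor by 1 bp or more. Of the FOSL2 regions near receptor genes 12 of 38 were shared (31.6%, Wilson interval 19.1 to 47.5), against 45.2% (43.3 to 47.1) near other genes and 40.0% (37.5 to 42.7) far from genes. Of the JUNB regions near receptor genes 12 of 14 were shared (85.7%, 60.1 to 96.0), against 75.7% (73.5 to 77.7) near other genes and 81.9% (78.8 to 84.6) far from genes. These intervals also overlapped. The shared FOSL2 regions near receptor genes had a median fold enrichment of 9.20 (5.73 to 10.3) and a median width of 864.5 bp, and the 26 others had 4.07 (3.59 to 4.56) and 445.5 bp. Near other genes the corresponding medians were 7.28 and 4.31 for fold enrichment. In the 12 shared pairs the FOSL2 and JUNB summits lay a median of 24 bp apart (1 to 233), against 32 bp over all shared JUNB regions of the chromosome.

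**Figure D3:**
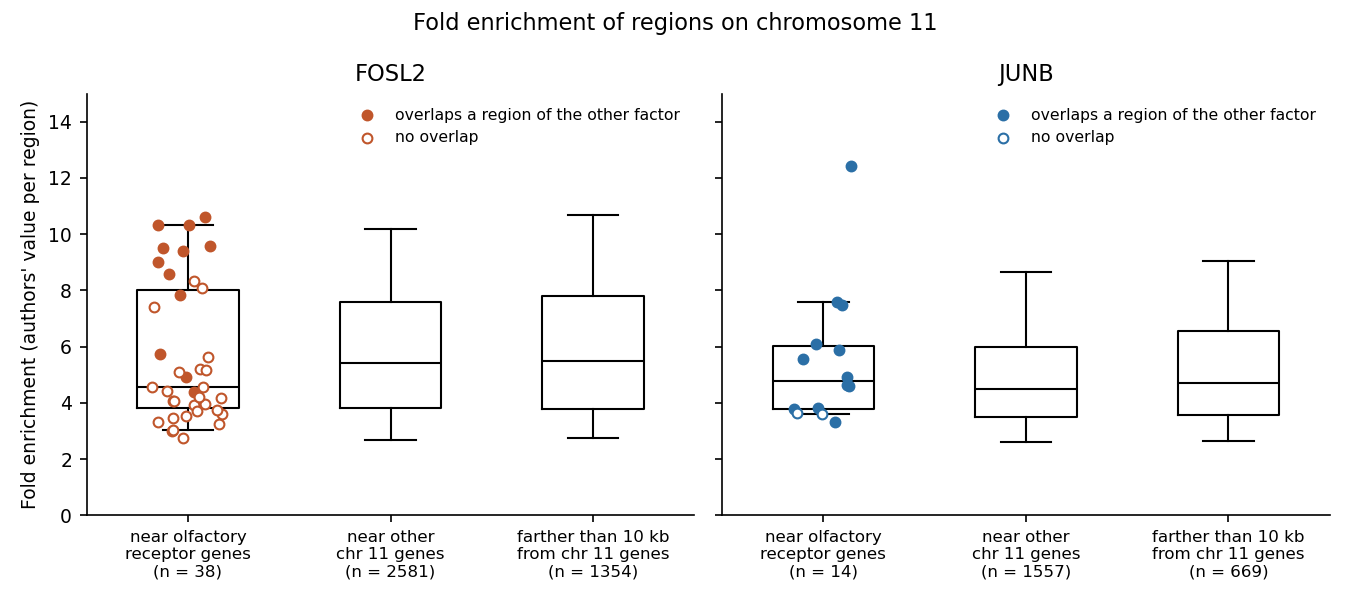
Fold enrichment per region (the authors' linear ratio) for FOSL2 (left) and JUNB (right) regions near olfactory receptor genes, near other chromosome 11 genes and farther than 10 kb from all protein-coding genes of the chromosome. Boxes give the quartiles and median with whiskers at the 5th and 95th percentiles, and points are the 38 FOSL2 and 14 JUNB regions near receptor genes, filled where the region overlaps one of the other factor; filled points make up the upper part of the FOSL2 column.

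Most of these regions were remote from genes of other families. Of the 38 FOSL2 regions 31, and of the 14 JUNB regions 12, lay farther than 10 kb from every protein-coding gene other than receptor genes, and 25 and 10 lay farther than 50 kb from one. The 7 FOSL2 regions closer than this were 5 inside the annotated span of MMP26, a metalloproteinase gene that runs through a stretch of receptor genes, 1 near TRIM68 and 1 on ZNF215. The receptor genes with a region of either factor lay a median of 79.8 kb from the nearest gene of another family (quartiles 15.8 and 148), and those without lay 101.9 kb away (53.8 and 251). Bound receptor genes were also annotated as longer, with a median of 5436 bp, against 999 bp for unbound ones, and the part of this length in their binding was not tested. A FOSL2 region lay near 9 of the 19 receptor genes within 10 kb of another gene (47.4%, 27.3 to 68.3) and near 27 of the 149 others (18.1%, 12.8 to 25.1). JUNB lay near 2 of the 19 (10.5%, 2.94 to 31.4) and 14 of the 149 (9.40%, 5.68 to 15.2). Of the 9 with FOSL2, OR51F2, OR51T1, OR51G1, OR51G2 and OR51A2 lay inside MMP26. OR52I1 and OR52I2 shared the region near TRIM68. The intervals treat such neighbours as independent, so an effect of nearby genes of other families was not tested.

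The strongest JUNB region of the whole chromosome lay beside a receptor gene. OR10V1, a class II receptor gene, had a JUNB region of fold enrichment 12.4 at chr11:59706447-59707488 (hg38), 5.43 kb from the gene, which ranked 1 among the 2240 JUNB regions of chromosome 11 and above 99.7% of the whole JUNB list. The FOSL2 region at the same place, chr11:59706433-59707583, had a fold enrichment of 10.6, ranked 161 of 3973 on the chromosome, and had its summit 30 bp from the JUNB summit. The nearest gene of another family, PATL1, which encodes an mRNA decay factor, was 37.4 kb away. OR5M1 had the next highest JUNB value, 7.59 at chr11:56624366-56625117, with 10.3 for FOSL2 and summits 10 bp apart. That pair was 9.49 kb from OR5M1 and 557 kb from the nearest gene of another family, LRRC55, which encodes an auxiliary potassium channel subunit.

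OR5B3 was the 1 receptor gene with more than 1 JUNB region. Its pairs had fold enrichments of 9.50 (FOSL2) and 7.48 (JUNB) with summits 2 bp apart, and 4.93 and 3.80 with summits 24 bp apart, at 7.56 to 9.42 kb from the gene. OR8B2 and OR8B3, whose annotated spans overlap, shared a pair of 10.3 (FOSL2) and 6.08 (JUNB) that lay inside OR8B3, with summits 2 bp apart, and a weaker FOSL2 region of 3.47. OR9Q1, annotated over a long span, held a FOSL2 region of 7.41 without JUNB and a pair of 9.40 (FOSL2) and 4.91 (JUNB), and the pair also lay within 10 kb of OR9I1.

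In the cluster on the short arm, OR52K1 had 3 FOSL2 regions (9.0, 3.94 and 2.75) and 1 JUNB region (5.88), and the strongest FOSL2 summit was 1 bp from the JUNB summit and 1.53 kb from the annotated start site. OR52H1 had a pair of 9.58 (FOSL2) and 4.65 (JUNB), and OR51T1 had a pair of 8.57 and 5.57, 8.82 and 8.89 kb from the gene and inside MMP26. OR10S1 on the long arm had a pair of 7.83 and 4.61, and OR2D3 a weak pair of 4.38 and 3.30 with summits 233 bp apart, the widest spacing of the 12. OR5A1, the receptor for beta-ionone, and its neighbour OR5A2 were counted for both factors through separate regions that did not overlap, 4.56 for FOSL2 and 3.64 for JUNB. OR10S1, OR2D3 and OR5A2 were named after their values were seen.

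FOSL2 alone marked 21 receptor genes. The highest values were 8.33 at OR10A3 and its neighbour OR10A6, from a region of 818 bp that touched OR10A3, and 8.08 at OR51G1 and OR51G2. These were above 77.2% and 75.05% of the whole FOSL2 list and had no JUNB region on them. OR4S2 and OR4C6 followed with 5.64, OR8B8 with 5.15 and OR51A2 with 4.55. Of the 38 FOSL2 regions 13 lay within 10 kb of more than 1 receptor gene, as at these neighbours, so bound genes are not independent of each other.

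OR52N2 was the 1 receptor gene with JUNB alone. Among receptor genes with a matched promoter window, it was also the 1 with a region on that window. Promoter windows from RefSeq, 250 bases before to 50 after an annotated start, were matched for 135 of the 168 receptor genes (138 windows). Of the 168 genes, 92 were annotated as no longer than 2 kb, with a median of 948 bp. Such a span may hold little more than the coding sequence, so the annotated start need not be where transcription begins. The windows of these genes may thus not be promoters, and the part of this in the contrasts with other genes was not tested. None of the 138 was touched by a FOSL2 region, which allows a share of up to 2.71% (upper Wilson limit), and 1 was touched by a JUNB region (0.725%, 0.128 to 3.99). Among 1144 windows of the other genes of the chromosome, FOSL2 touched 263 (22.99%, 20.6 to 25.5) and JUNB 293 (25.6%, 23.2 to 28.2). The JUNB region at OR52N2, chr11:5808528-5808781, had a low fold enrichment of 3.61, above 24.5% of the list, and its summit lay 304 bp from the start site, outside the window.

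The windows of receptor genes were AT-rich, with a median GC content of 37.0% (quartiles 32.8 and 41.8) and a median of 1 CpG, against 62.3% (53.9 and 70.0) and 21 CpGs in the windows of other genes. The OR52N2 window had the most CpGs of the receptor windows, 14, followed by OR51S1 with 6. Its GC content of 55.3% did not stand apart, with 57.0% at OR51E1 and 54.7% at OR52K1. The AP-1 letters TGACTCA or TGAGTCA, which are each other's reverse complement, were in 4 of the 138 receptor windows (2.90%), in 4.28% of the windows of other chromosome 11 genes and in 4.95% of all 35116 RefSeq windows. TGACGTCA, the cyclic AMP response element to which AP-1 family dimers with ATF proteins bind, was in 0 of 138 receptor windows, which allows up to 2.71%, and in 1.85% of all windows. CCCNNGGG, the core of sites for EBF factors of olfactory neurons, was in 7.97% of receptor windows and 19.1% of all windows. TAATTA, a homeodomain core of the kind LHX2 binds, was in 24.6% of receptor windows and 4.84% of all windows. TATAAA on either strand was in 36.2% of receptor windows and 11.5% of all windows. Base composition, and annotated starts that may not be transcription starts, can both enter these contrasts. The part of either was not tested.

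The windows of 300 bases are shown for OR52N2, because a region reached into it, and for OR10G7 and OR4B1, because they held AP-1 letters and no region reached into them. They are from RefSeq (GRCh38.p14) and run 5′ to 3′ on the strand of the gene. In OR52N2 (plus strand, chr11:5808674-5808973) the capitals are the 108 bases under the JUNB region. In OR10G7 (minus strand, chr11:124041276-124041575) and OR4B1 (plus strand, chr11:48216560-48216859) the capitals are the AP-1 letters, which begin 49 and 133 bases before the annotated start. OR4B1 is annotated with 930 bp, and its sequence from the annotated start begins with the start codon ATG. Where its transcription begins is thus not given, and its window may not be a promoter.
OR52N2: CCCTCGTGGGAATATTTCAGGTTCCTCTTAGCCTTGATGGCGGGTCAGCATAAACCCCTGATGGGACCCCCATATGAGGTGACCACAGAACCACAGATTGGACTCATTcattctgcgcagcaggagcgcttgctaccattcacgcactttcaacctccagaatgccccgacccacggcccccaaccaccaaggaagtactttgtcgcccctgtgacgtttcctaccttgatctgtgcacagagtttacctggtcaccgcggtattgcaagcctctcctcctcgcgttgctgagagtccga
OR10G7: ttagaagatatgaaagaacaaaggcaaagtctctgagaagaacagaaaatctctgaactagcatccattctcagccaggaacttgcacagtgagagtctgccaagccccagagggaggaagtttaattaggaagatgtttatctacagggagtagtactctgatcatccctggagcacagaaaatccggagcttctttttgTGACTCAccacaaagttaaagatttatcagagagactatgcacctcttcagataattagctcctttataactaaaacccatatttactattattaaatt
OR4B1: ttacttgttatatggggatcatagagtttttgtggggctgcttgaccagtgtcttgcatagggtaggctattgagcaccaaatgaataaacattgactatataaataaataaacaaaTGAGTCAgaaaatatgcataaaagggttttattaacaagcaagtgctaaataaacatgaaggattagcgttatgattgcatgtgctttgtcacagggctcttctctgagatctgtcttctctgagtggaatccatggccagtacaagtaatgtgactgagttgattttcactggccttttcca
The part of the OR52N2 window under the region holds neither form of the AP-1 letters, which says only that they are not in this window. The nearest FOSL2 region was 5140 bp from the OR10G7 window, at the far end of that gene with a fold enrichment of 3.24, and 21928 bp from the OR4B1 window. OR10G7 and OR4B1 were chosen for display after their windows were searched. Among windows of other chromosome 11 genes that held the letters, FOSL2 touched 24 of 49 (49.0%, 35.6 to 62.5) and JUNB 17 (34.7%, 22.9 to 48.7).

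**Figure D4:**
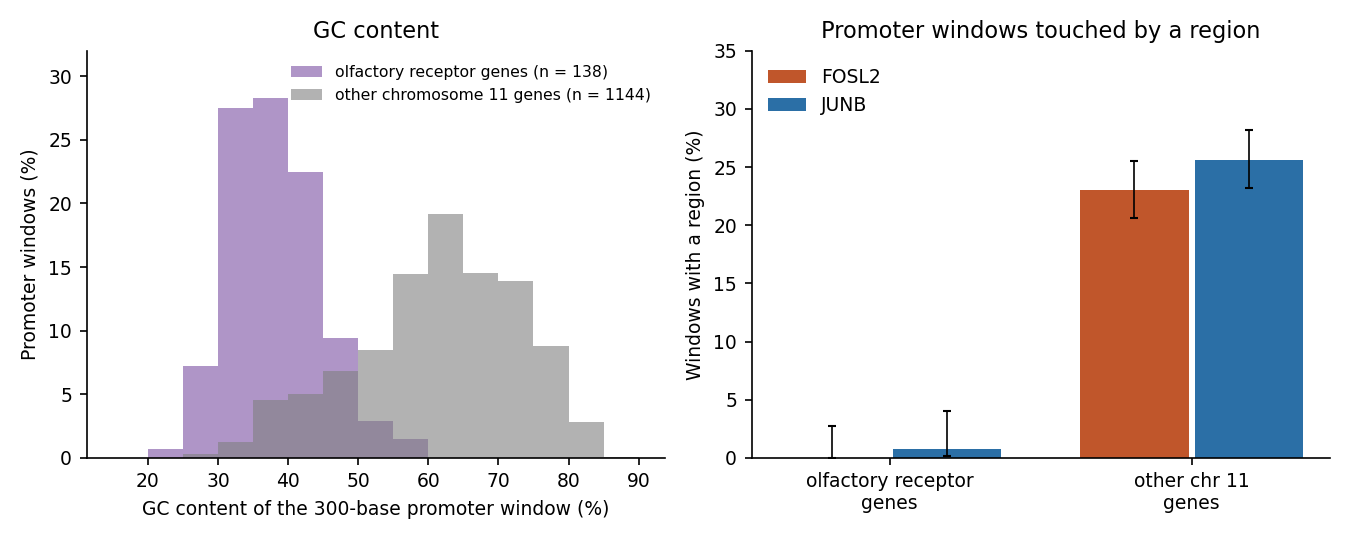
Left, GC content in percent of the promoter windows of olfactory receptor genes (138 windows) and of other chromosome 11 genes (1144 windows), as shares of each group. Right, share of these windows touched by a FOSL2 or JUNB region with 95% Wilson intervals; the receptor windows are at 0% for FOSL2 and 0.725% for JUNB.

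Binding differed widely from cluster to cluster, where receptor genes less than 1 Mb from the next were taken as a cluster. The cluster from OR52B4 to OR10A3 on the short arm, 3.57 Mb long with 67 receptor genes and 43 genes of other families, had FOSL2 near 18 receptor genes (26.9%, 17.7 to 38.5) and JUNB near 5 (7.46%, 3.23 to 16.3). The cluster from OR4C46 to OR5AK2 beside the centromere, 2.39 Mb long with 48 receptor genes and 2 others, had FOSL2 near 3 (6.25%, 2.15 to 16.8) and JUNB near 1 (2.08%, 0.369 to 10.9). Its whole span held 4.61 regions per Mb for FOSL2 and 1.26 for JUNB, against 29.4 and 16.6 on the chromosome. Its flanks of 500 kb on either side held 24 and 13 per Mb, but all of these regions lay in the flank beyond OR5AK2. The flank before OR4C46 held none, as the nearest FOSL2 and JUNB regions to OR4C46 were 1051 and 2020 kb away. The cluster from OR52B4 to OR10A3 held 19.9 and 7.83 per Mb, with 31 and 22 in its flanks, and the cluster from OR6X1 to OR8A1 held 15.9 and 3.67, with 28 and 20 in its flanks. The cluster from OR9Q1 to OR10V1 held 26.04 and 15.98 per Mb, close to the chromosome's values, with 35 and 20 in its flanks. The 9 receptor genes from OR4B1 to OR4A47 and at OR4C13 and OR4C12 were without FOSL2 or JUNB within 10 kb. In the cluster from OR9Q1 to OR10V1, 6 of 21 receptor genes (28.6%, 13.8 to 49.96) had FOSL2 and the same 6 had JUNB. In the cluster from OR6X1 to OR8A1, 8 of 22 (36.4%, 19.7 to 57.0) had FOSL2 and 3 had JUNB (13.6%, 4.75 to 33.3). The FOSL2 interval of the cluster from OR4C46 to OR5AK2 overlapped that of the cluster from OR9Q1 to OR10V1 and lay below those of the clusters from OR52B4 to OR10A3 and from OR6X1 to OR8A1. No test between clusters was made.

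Class I receptor genes, the families shared with fish, numbered 55 and all lay in the cluster from OR52B4 to OR10A3. FOSL2 lay near 13 of them (23.6%, 14.4 to 36.3) and JUNB near 4 (7.27%, 2.86 to 17.3). Among the 113 class II genes, FOSL2 lay near 23 (20.4%, 13.96 to 28.7) and JUNB near 12 (10.6%, 6.18 to 17.6), and the intervals of the classes overlapped. Family 10 had FOSL2 near 9 of 16 genes, family 51 near 7 of 23, family 52 near 6 of 25, family 8 near 4 of 22, family 5 near 4 of 34 and family 4 near 2 of 24. Families 2 and 9 had both FOSL2 and JUNB near 2 of 5 genes each. None of the 7 genes of family 56, the 5 of family 6 or the 2 of family 1 had either factor nearby.

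**Figure D5:**
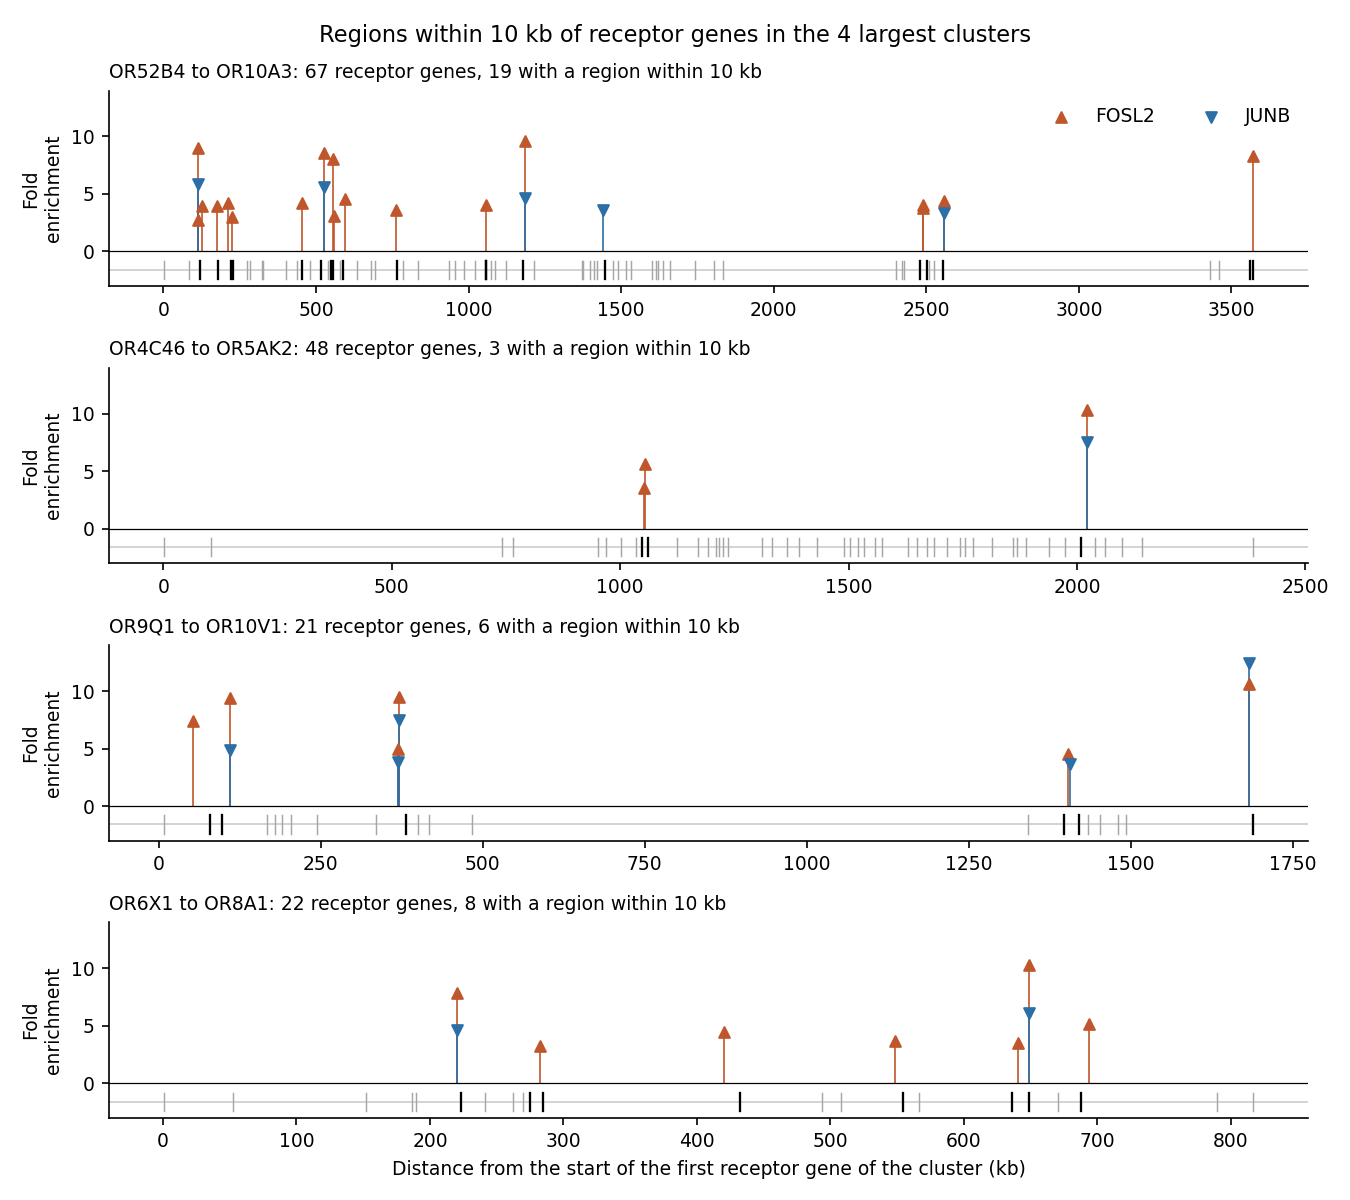
Regions within 10 kb of receptor genes in the 4 largest clusters, with fold enrichment (the authors' ratio) against distance in kb from the start of the first receptor gene. Triangles are FOSL2 (orange, up) and JUNB (blue, down) summits, and ticks are receptor genes, black where a region of either factor lay within 10 kb; the cluster from OR4C46 to OR5AK2 has 3 black ticks of 48 and that from OR52B4 to OR10A3 has 19 of 67.

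Receptors with a described role outside the nose varied. OR2AT4, the receptor for the synthetic sandalwood odorant Sandalore, which has been described in skin keratinocytes, stands alone on the long arm and had 4 FOSL2 regions, the most of any receptor gene. Their fold enrichments were 5.73, 5.19, 5.10 and 3.33, and the first, at chr11:75087828-75088272 inside the gene, overlapped the single JUNB region of 3.80 with summits 50 bp apart. The nearest gene of another family, SLCO2B1, an organic anion transporter gene, lay 54.2 kb from OR2AT4. OR51B5, also described in keratinocytes, had 1 FOSL2 region of 4.07, which lay inside its annotated span of 165335 bp and on OR51Q1, and had no JUNB region within 10 kb. OR51E1 and OR51E2, receptors abundant in prostate, had none of either factor within 10 kb, with the nearest FOSL2 regions 52.4 and 22.3 kb away. The musk receptor gene OR5AN1, the guaiacol receptor gene OR10G4 and the amyl butyrate receptor gene OR2AG1 had none either, with the nearest FOSL2 regions 55.0, 17.0 and 33.8 kb away.

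Genes that serve odorant signalling and receptor gene choice were mostly bound. FOSL2 lay near 20 of 22 (90.9%, 72.2 to 97.5) and JUNB near 17 (77.3%, 56.6 to 89.9), against 77.2% and 64.3% of all protein-coding genes, which lie within these intervals. On chromosome 11, CNGA4, a subunit of the olfactory cyclic nucleotide-gated channel, had FOSL2 and JUNB values of up to 8.32 and 4.12, and OMP, the olfactory marker protein gene, had neither factor nearby. CNGA2, the main channel subunit, reached 12.5 (FOSL2) and 9.48 (JUNB), and GNAL, the olfactory G protein alpha subunit gene, 10.99 and 8.12. EBF1 reached 12.0 and 10.2 and LHX2 6.37 and 3.37, both transcription factor genes of olfactory neurons. ADCY3, the olfactory adenylyl cyclase gene, had 3 FOSL2 regions of up to 10.4 and no JUNB region. STOML3 had none of either. The annotated lengths of these 22 genes ran from 492 bp (OMP) to 403997 bp (EBF1), and a longer gene has a wider window. The part of length in these shares and highest values was not tested. As a check of the labelled cell line, all 5 keratinocyte genes chosen for it (KRT5, KRT14, TP63, COL17A1 and ITGB6) had regions of both factors (interval 56.6 to 100%). The 60.3% of all protein-coding genes with both factors lies inside this interval and TP63 and ITGB6 are long genes, so the count does not tell keratinocytes from other cells.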

How the data were processed

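The deposited files are narrow peak lists, 1 per factor, in hg38, and hold no value per library. Bowtie2, SAMtools 1.8, Picard 1.89, MACS2 and deepTools appear in the submitters' processing notes, which give no settings. Neither the control nor the rule that combined the 3 libraries is given there. Both lists are labelled conservative overlap, which names a kind of rule without its details. The authors deposited for each region a fold enrichment (a linear ratio over background), a −log10 q value and a summit offset (a position, used for spacing). Depth per library is unknown.

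Gene positions came from the RefSeq table of GRCh38.p14. Members whose rows lie outside its ordered block of chromosome 11 were treated as having no position. Windows, overlaps, Wilson intervals and exact order-statistic intervals of medians were computed in Python 3.11.15 (pandas 2.3.3, numpy 2.4.6, scipy 1.17.1), and the window and overlap functions were tested on simulated data. Genes with both factors (up to 10 by JUNB fold enrichment), with FOSL2 only (up to 8), with JUNB only, at the 10 kb limit, and 8 receptors with a known ligand or expression outside the nose were named by rule. The members and lists were chosen with earlier results of these data known. Alternatives were other distances, gene ends, stricter lists, other definitions of overlap, and genes that share windows counted once.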

Additional observations from a re-analysis of the deposited data

How the results depend on the processing

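No paired analysis was possible because each factor had 1 list for its 3 libraries, and leaving out a library could not be done for the same reason. Of 73 recomputed values over 9 results, 59 stayed within the interval of the reported value. Within 5 kb, FOSL2 lay near 14.3% of receptor genes and both factors near 5.36%, and within 50 kb the shares were 57.7% (FOSL2), 35.1% (JUNB) and 31.0% (both). With the 10000 regions of highest fold enrichment in each list, FOSL2 lay near 2.38%, JUNB near 1.79% and both near 1.19% of receptor genes, against 17.9%, 24.7% and 12.9% of other chromosome 11 genes. That list left 3 regions of each factor, with 66.7% of the FOSL2 regions shared, median fold enrichments of 10.3 (FOSL2) and 7.59 (JUNB) and a median FOSL2 width of 971 bp. The shared part of JUNB regions was 100% of 10 regions (72.2 to 100) with −log10 q of at least 10. It was 100% of 9 regions (70.1 to 100) with regions narrower than 400 bp left out. With receptor genes whose windows touch counted once, 90 windows had FOSL2 in 25.6%, JUNB in 14.4% and both in 13.3%. Leaving out members longer than 100 kb, or counting the 3 members without a position as unbound, both chosen after seeing the data, gave FOSL2 shares of 20.5% and 21.1%. Other genes no longer than the longest member had FOSL2 in 80.5% and JUNB in 67.8%, and those no longer than 20 kb, also chosen then, in 73.2% and 60.3%. The receptor genes had the lower share for both factors under each alternative that was also computed for the other genes, which the count of touching windows was not. The number of regions, 38 and 14, limits the precision of medians and shared parts.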

Other observations

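Olfactory receptor genes of the other autosomes and X, chosen by the same symbol rule, had a FOSL2 region within 10 kb in 56 of 219 cases (25.6%, Wilson interval 20.2 to 31.7) and a JUNB region in 25 (11.4%, 7.85 to 16.3). The shares on chromosome 11 were 21.4% and 9.52%, with overlapping intervals. On chromosome 19 the counts were 11 (FOSL2) and 6 (JUNB) of 20 receptor genes, on chromosome 1 they were 12 and 3 of 61, on chromosome 9 they were 8 and 3 of 25, and on chromosome 12 they were 2 and 0 of 18. Olfactory receptor pseudogenes of chromosome 11, which stand among the intact genes, had FOSL2 in 38 of 195 cases (19.5%, 14.5 to 25.6) and JUNB in 24 (12.3%, 8.41 to 17.7).

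JUNB regions above the median fold enrichment of their list were shared with FOSL2 in 7 of 7 cases near receptor genes, against 93.2% near other chromosome 11 genes, and those below it in 5 of 7 cases (71.4%), against 62.3%. FOSL2 regions below the list median were shared in 2 of 24 cases near receptor genes (8.33%, 2.32 to 25.8), against 23.8% (21.6 to 26.1) near other genes. FOSL2 regions above the list median were shared in 10 of 14 cases near receptor genes (71.4%, 45.4 to 88.3), against 68.4% (65.7 to 70.9) near other genes. The intervals overlapped in each of these comparisons.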
